A study of Mus musculus with 4 samples.

Results

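The 10 genes described here are those of calprotectin and of neutrophil granules and surface proteins on the array: S100a8, S100a9, Mpo, Elane, Camp, Ltf, Ngp, Retnlg, Cd177 and Clec4d, out of 23462 genes named through RefSeq accessions. The set was chosen by its measured signals on these same 4 arrays, so the members' values are descriptions and carry no test. Each gene was read by 1 probe, printed as 1 spot. Of the 10, 9 were well above background on at least 1 array, 5 (S100a8, S100a9, Mpo, Elane and Camp) on all 4, and Cd177 on none. The 4 arrays held total RNA of whole mouse brain, 1 array for each of the groups wild-type with PBS (phosphate-buffered saline), Nav1.8CreROSA26DTA with PBS, wild-type with LPS (lipopolysaccharide, a bacterial outer membrane component) and Nav1.8CreROSA26DTA with LPS. The LPS dose was 20 mg/kg, injected intraperitoneally, and tissue of the LPS groups was collected after 12 hours. No collection time is given for the PBS groups. The design asks how a septic dose of LPS alters the brain with and without Nav1.8-lineage sensory neurons. In Nav1.8CreROSA26DTA mice, Cre recombinase made from the Nav1.8 (Scn10a) locus switches on diphtheria toxin A from the ROSA26 locus and so ablates those neurons, which lie in peripheral ganglia that were not measured. Strain, age and sex, how many mice an array stands for, and whether blood was washed from the brains are not given in the sources used here.

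Neutrophils make their granules in waves while they mature in the bone marrow. Mpo and Elane belong to the primary granules of promyelocytes, Ltf, Camp and Ngp to the secondary granules of myelocytes, and S100a8 and S100a9 transcripts accumulate later and persist in circulating neutrophils. S100A8 and S100A9 form calprotectin, an abundant cytosolic metal-binding complex that binds TLR4 and RAGE once released, and the healthy brain holds few neutrophils, which lie mostly in its vessels and borders. In whole tissue, fewer cells of a type and less RNA per cell cannot be told apart.

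S100a8 and S100a9 lie next to each other on chromosome 3, and Camp, Ngp and Ltf lie on chromosome 9 without being neighbours. The 250 bases before the annotated start of 4 of the genes are shown because S100a8 and S100a9 kept nearly the same profile over the arrays, Ngp had one near to it, and Ltf, like Ngp a gene of secondary granules, parted from it. The sequences are those of RefSeq on GRCm38.p6, written 5′ to 3′ on the gene's strand, and were picked after the values were seen. Capitals mark matches of TTNNGNAA on either strand, a loose core of sites for C/EBP factors (which drive granulocyte genes), and of TATAAA on the gene's strand.
S100a8 (chr3:90668821-90669070, forward strand): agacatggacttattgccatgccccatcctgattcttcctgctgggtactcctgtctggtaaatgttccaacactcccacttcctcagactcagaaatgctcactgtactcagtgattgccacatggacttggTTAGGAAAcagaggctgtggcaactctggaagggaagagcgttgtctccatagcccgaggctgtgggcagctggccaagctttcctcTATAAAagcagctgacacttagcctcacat
S100a9 (chr3:90695722-90695971, reverse strand): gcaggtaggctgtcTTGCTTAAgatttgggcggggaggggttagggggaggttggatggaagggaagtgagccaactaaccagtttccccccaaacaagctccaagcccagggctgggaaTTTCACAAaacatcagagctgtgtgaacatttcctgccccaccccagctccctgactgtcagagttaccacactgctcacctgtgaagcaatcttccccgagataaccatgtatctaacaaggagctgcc
Ngp (chr9:110419558-110419807, forward strand): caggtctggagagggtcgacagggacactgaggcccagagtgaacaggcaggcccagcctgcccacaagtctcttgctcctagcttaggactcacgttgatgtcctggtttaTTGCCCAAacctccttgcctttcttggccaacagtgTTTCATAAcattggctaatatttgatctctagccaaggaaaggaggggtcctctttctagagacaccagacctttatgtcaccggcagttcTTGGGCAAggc
Ltf (chr9:111019042-111019291, forward strand): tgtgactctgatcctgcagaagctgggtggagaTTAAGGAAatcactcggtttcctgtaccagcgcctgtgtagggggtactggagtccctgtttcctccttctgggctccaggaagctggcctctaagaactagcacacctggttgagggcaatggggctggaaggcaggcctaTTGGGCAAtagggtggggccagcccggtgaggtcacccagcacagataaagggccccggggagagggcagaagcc
TTNNGNAA was present before 7 of the 10 genes (S100a8, S100a9, Ltf, Ngp, Retnlg, Cd177 and Clec4d) and before 36.8% of 32851 RefSeq promoters of the same length. Mpo, Elane and Camp held none in this window. GAGGAA, a core of PU.1 sites searched on both strands and not in capitals above, was present before 6 of the 10 (S100a8, Ltf, Mpo, Elane, Cd177 and Clec4d) and before 23.3% of all. TATAAA was present before 2 of the 10 (S100a8 and Cd177) and before 7.59% of all. These matches describe letters in a window and not sites in use.

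Signals are given as scaled signal, the background-subtracted brightness of a spot brought to a common 75th percentile between arrays, with ± the error that the scanner software assigned to that spot. That error was 10% to 17.4% of the signal over the 30 values well above background, and it covers the measurement of 1 spot and not the spread between mice. A spot not well above background gives only an upper limit, and folds against it are written as at least N-fold, set against the lowest signal well above background on that array or the spot's own signal, whichever was higher. Across all genes measured on both arrays of a pair, the 95th percentile of the absolute log2 difference was 0.88 between the wild-type arrays, 0.95 between the Nav1.8CreROSA26DTA arrays, 0.67 between the PBS arrays and 0.57 between the LPS arrays. Those 4 values show how far apart most genes lay on 2 arrays.

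**Figure D1:**
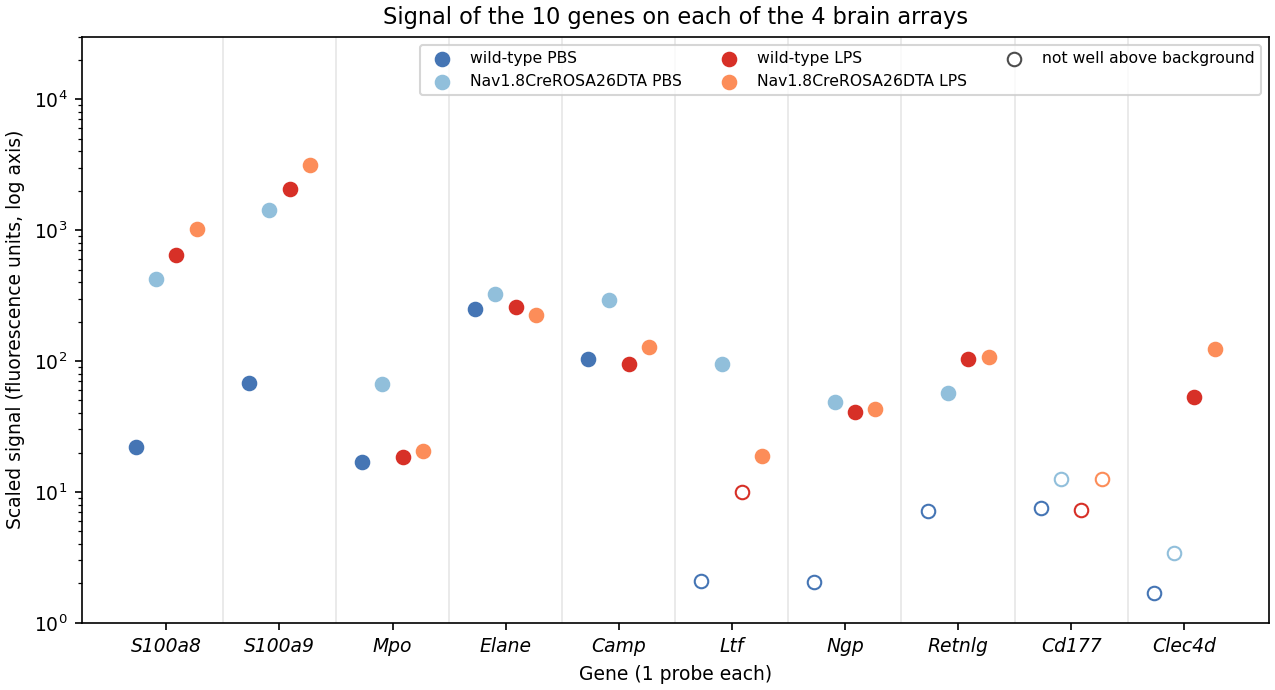
Scaled signal (fluorescence units, log axis) of the 10 genes on the 4 arrays, 1 point per array, hollow where the spot was not well above background. S100a8 and S100a9 were lowest on the wild-type PBS array, Mpo, Camp and Ltf were highest on the Nav1.8CreROSA26DTA PBS array, and Clec4d was above background on the LPS arrays only.

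The 2 calprotectin genes spanned 46.6-fold (S100a8) and 47.0-fold (S100a9) over the 4 arrays, and the wild-type PBS array stood apart from the other 3. S100a8 had a scaled signal of 21.9 ± 2.67 in wild-type with PBS, 427 ± 42.7 in Nav1.8CreROSA26DTA with PBS, 645 ± 64.5 in wild-type with LPS and 1019 ± 102 in Nav1.8CreROSA26DTA with LPS. S100a9 had 67.5 ± 7.02, 1414 ± 141, 2058 ± 206 and 3171 ± 317 in the same order. Both genes therefore followed the same order of arrays, with the wild-type brain with PBS lowest and the Nav1.8CreROSA26DTA brain with LPS highest. In wild-type mice LPS came with 29.5-fold more S100a8 (log2 4.88) and 30.5-fold more S100a9 (log2 4.93). In Nav1.8CreROSA26DTA mice the same comparison gave 2.39-fold (log2 1.26) and 2.24-fold (log2 1.17), from a PBS array that was already high. Between genotypes, the PBS arrays differed by 19.5-fold for S100a8 (log2 4.29) and 20.9-fold for S100a9 (log2 4.39), higher in Nav1.8CreROSA26DTA. The LPS arrays differed by 1.58-fold (log2 0.66) and 1.54-fold (log2 0.62), close to the 0.57 that bounded 95% of genes between those arrays. The log2 ratio of S100a9 to S100a8 moved by only 0.10 across the 4 arrays, from 1.63 to 1.73. With normexp background correction, which adds an offset of 50 and so shrinks folds against dim spots, the wild-type LPS difference was 3.28 for S100a8 and 4.06 for S100a9 (log2), and the genotype difference with PBS was 2.71 and 3.53.

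The 2 primary granule genes behaved unlike calprotectin and unlike each other. Mpo, which encodes myeloperoxidase, had a scaled signal of 17 ± 2.59 in wild-type with PBS, 66.6 ± 7.13 in Nav1.8CreROSA26DTA with PBS, 18.5 ± 3.22 in wild-type with LPS and 20.4 ± 3.25 in Nav1.8CreROSA26DTA with LPS. Only the Nav1.8CreROSA26DTA PBS array was high, and the errors of the other 3 overlapped. Mpo was thus 3.92-fold higher in Nav1.8CreROSA26DTA than in wild-type with PBS, and 3.27-fold lower with LPS than with PBS in Nav1.8CreROSA26DTA (log2 −1.71), against a log2 difference of 0.13 in wild-type. With normexp correction the first 2 of these were a log2 of 0.82 and −0.91, both under 2-fold. Elane, which encodes neutrophil elastase, read 249, 326, 257 and 225 in the order used for Mpo, a span of 1.45-fold. Its largest difference, a log2 of −0.53 between the Nav1.8CreROSA26DTA arrays, was below the 0.95 that bounded 95% of genes there, and its genotype difference with PBS was 0.38. Whether the Elane probe follows neutrophils in brain was not tested. Prtn3, the proteinase gene beside Elane, read 17.8 to 20.5 on the 4 arrays.

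Among the secondary granule genes, Camp and Ltf were highest in the Nav1.8CreROSA26DTA brain with PBS, while Ngp was alike on 3 arrays. Camp, which encodes the cathelicidin precursor, had a scaled signal of 104 in wild-type with PBS, 295 in Nav1.8CreROSA26DTA with PBS, 95.3 in wild-type with LPS and 127 in Nav1.8CreROSA26DTA with LPS. Camp was 2.84-fold higher in Nav1.8CreROSA26DTA than in wild-type with PBS and 2.32-fold lower with LPS than with PBS in Nav1.8CreROSA26DTA, while the wild-type arrays differed by a log2 of −0.12. Ltf, which encodes the iron-binding protein lactoferrin, read 95.6 in Nav1.8CreROSA26DTA with PBS and 18.9 in Nav1.8CreROSA26DTA with LPS, and was not well above background on either wild-type array. Its fold of 5.07 between the Nav1.8CreROSA26DTA arrays, lower with LPS (log2 −2.34), was the largest decrease with LPS among the 10 genes. With PBS, Ltf was at least 12.5-fold higher in Nav1.8CreROSA26DTA than in wild-type, and with LPS at least 1.83-fold higher. Ngp, which encodes neutrophilic granule protein, read 49.0, 41.0 and 42.7 in Nav1.8CreROSA26DTA with PBS, wild-type with LPS and Nav1.8CreROSA26DTA with LPS, and was not well above background in wild-type with PBS. Ngp was at least 5.36-fold lower on the wild-type PBS array than on the wild-type LPS array, and at least 6.40-fold lower than on the Nav1.8CreROSA26DTA PBS array. Unlike Ltf, it differed by a log2 of only −0.20 between the Nav1.8CreROSA26DTA arrays. With normexp correction the lower signal with LPS in Nav1.8CreROSA26DTA was a log2 of −0.98 for Camp and −1.28 for Ltf, and the genotype difference of Camp with PBS was 1.1. For Ngp the genotype difference with PBS was then 0.91 and the wild-type LPS difference 0.67, both under 2-fold.

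The secreted and surface members split again. Retnlg, a rodent resistin-like gene of neutrophils, read 56.7 in Nav1.8CreROSA26DTA with PBS, 104 in wild-type with LPS and 108 in Nav1.8CreROSA26DTA with LPS, and was not well above background in wild-type with PBS. It was at least 13.6-fold higher with LPS in wild-type and 1.90-fold higher (log2 0.93) in Nav1.8CreROSA26DTA, and at least 7.41-fold higher in Nav1.8CreROSA26DTA than in wild-type with PBS. Clec4d, a C-type lectin receptor of myeloid cells that signals through Fcer1g and Syk, read 53.2 in wild-type with LPS and 123 in Nav1.8CreROSA26DTA with LPS, and was not well above background with PBS in either genotype. Clec4d was at least 6.95-fold higher with LPS in wild-type, and in Nav1.8CreROSA26DTA by at least 12.3-fold, and it was the only member at least 2-fold apart between the LPS arrays (2.31-fold, log2 1.21, higher in Nav1.8CreROSA26DTA). It thus showed no signal above background on the Nav1.8CreROSA26DTA PBS array, where 8 other members did. Cd177, a neutrophil surface glycoprotein gene, gave no fold, since its signals of 7.32 to 12.6 were not well above background on any array. With normexp correction the difference of Clec4d between the LPS arrays was 0.58, and the wild-type LPS difference was 0.86 for Clec4d and 1.16 for Retnlg. The genotype difference of Retnlg with PBS was then 0.82, under 2-fold.

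Counted together, LPS in wild-type came with at least 2-fold higher signal for 2 of the 5 members measured on both arrays (S100a8 and S100a9) and with a bound of at least 2-fold for another 3 (Ngp, Retnlg and Clec4d), beside 3.41% of 16494 genes measured on both arrays. In Nav1.8CreROSA26DTA, 2 of 8 (S100a8 and S100a9) were at least 2-fold higher, beside 3.1% of 16530 genes, and Clec4d had a bound above 2-fold. In the same pair 3 of 8 (Mpo, Camp and Ltf) were at least 2-fold lower, beside 1.42% of all genes. These contrasts were in view when the members were chosen, so nothing is read from the counts against those shares.

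**Figure D2:**
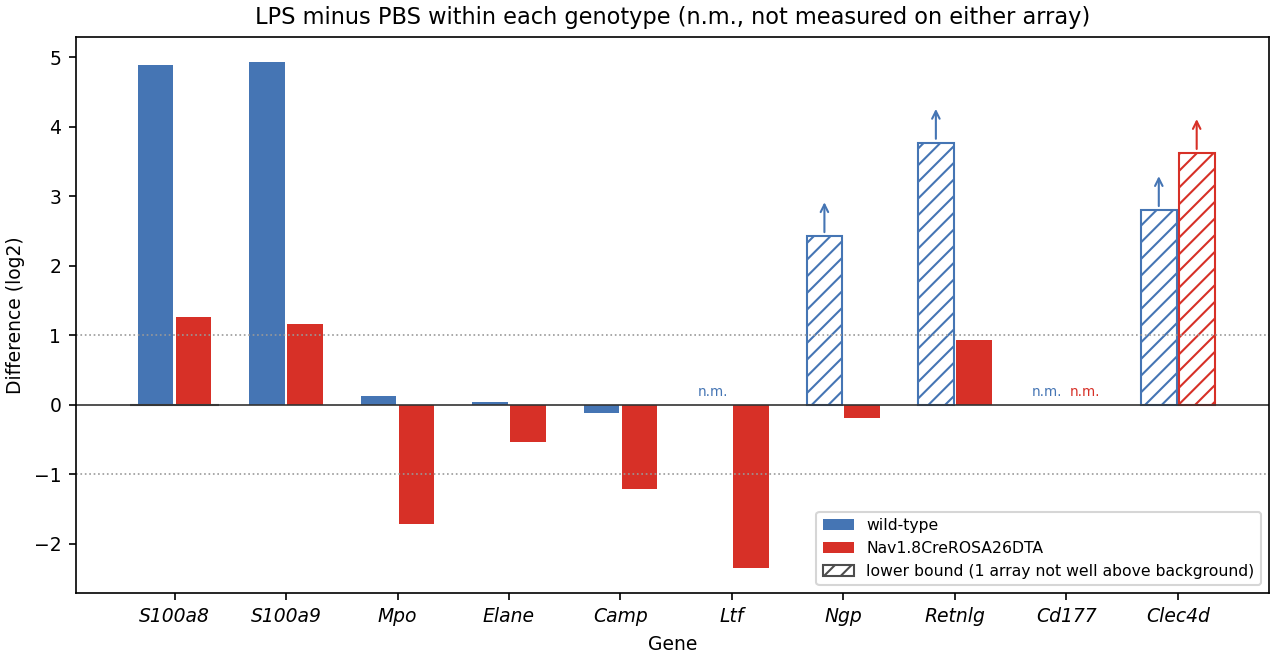
Difference of LPS minus PBS (log2 of scaled signal) for each gene within wild-type (blue) and Nav1.8CreROSA26DTA (red), 1 array a group. Hatched bars with arrows are lower bounds, n.m. marks genes not measured on either array, and dotted lines mark 2-fold. S100a8 and S100a9 stand near 5 in wild-type and near 1 in Nav1.8CreROSA26DTA, and Mpo, Camp and Ltf lie below −1 in Nav1.8CreROSA26DTA.

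Between the PBS arrays, 4 of the 5 members measured on both (S100a8, S100a9, Mpo and Camp) were at least 2-fold higher in Nav1.8CreROSA26DTA, beside 1.21% of 16627 genes, and Ltf, Ngp and Retnlg had bounds above 2-fold. Between the LPS arrays, 1 of 8 (Clec4d) was at least 2-fold higher in Nav1.8CreROSA26DTA, beside 0.829% of 16520 genes, and the other 7 lay within 2-fold. For the 5 members measured on all 4 arrays, the LPS response in Nav1.8CreROSA26DTA minus that in wild-type was −3.63 for S100a8, −3.76 for S100a9, −1.83 for Mpo, −1.09 for Camp and −0.58 for Elane on the log2 scale. Thus for 4 of 5 the difference of LPS minus PBS was at least 2-fold lower in Nav1.8CreROSA26DTA, beside 1.53% of 16244 genes. For S100a8 and S100a9 this was a smaller rise, whereas Mpo and Camp differed little between the wild-type arrays and were lower with LPS in Nav1.8CreROSA26DTA. With normexp correction the values for Mpo and Camp were −0.96 and −0.83, which leaves 2 of 5 (S100a8 and S100a9). The pairs share arrays: a high Nav1.8CreROSA26DTA PBS array makes both its genotype difference larger and its LPS minus PBS difference lower.

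**Figure D3:**
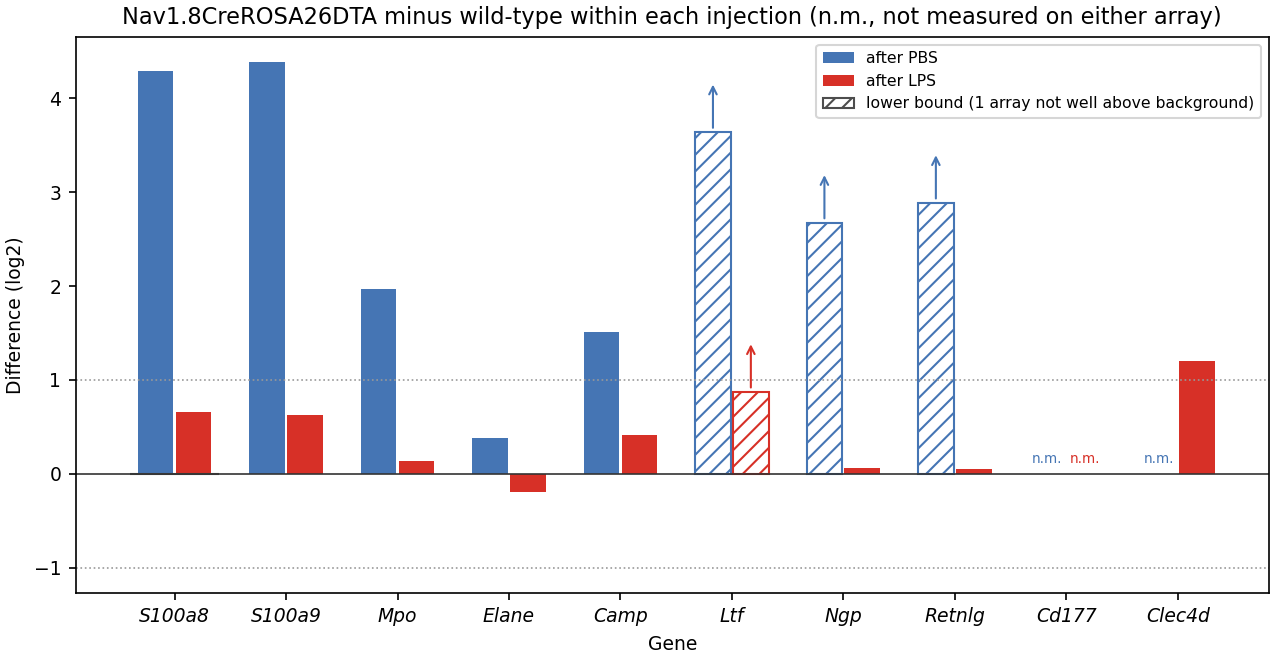
Difference of Nav1.8CreROSA26DTA minus wild-type (log2 of scaled signal) for each gene after PBS (blue) and after LPS (red), 1 array a group. Hatched bars with arrows are lower bounds, n.m. marks genes not measured on either array, and dotted lines mark 2-fold. Differences after PBS reach 4.39, while after LPS only Clec4d passes 1.

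Of 8 red cell genes measured on both PBS arrays, 7 were at least 2-fold higher in Nav1.8CreROSA26DTA. So were S100a8, S100a9, Mpo and Camp and, as bounds, Ltf, Ngp and Retnlg. Elane was not, and Clec4d and Cd177 were not measured on either PBS array. Of 11 red cell genes, 9 had a probe, and their summed signal was 54611 in wild-type with PBS, 397865 in Nav1.8CreROSA26DTA with PBS, 129350 in wild-type with LPS and 207898 in Nav1.8CreROSA26DTA with LPS. In this and all other sums over a list, a dim signal was taken at the array's floor, the lowest signal well above background there, unless its own signal was higher. Hba-a1 and Hba-a2 made up most of each red cell sum, at 174542 and 168179 in Nav1.8CreROSA26DTA with PBS. Over 5 haemoglobin probes and Alas2, an enzyme of haem synthesis in red cell precursors, the Nav1.8CreROSA26DTA PBS array was 7.24-fold to 13.7-fold above the wild-type PBS array. The same 6 probes were 2.13-fold to 2.69-fold higher with LPS in wild-type and 1.88-fold to 2.22-fold lower with LPS in Nav1.8CreROSA26DTA, a direction that Mpo, Camp and Ltf shared in Nav1.8CreROSA26DTA and that S100a8 and S100a9 did not. Haemoglobin probes share sequence between paralogs, so a value cannot be assigned to 1 haemoglobin gene. The part of red cell RNA in the members' differences was not tested.

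Of the markers of mature neutrophils outside the set, 4 (Ly6g, Mmp8, Csf3r and Trem1) were measured on both PBS arrays. Each differed by less than 2-fold there, Mmp8 by only just less. Ly6g, the surface antigen used to define mouse neutrophils, read 43.8 and 47.2 in wild-type and Nav1.8CreROSA26DTA with PBS, and 310 and 258 in the same genotypes with LPS. It was therefore alike between the PBS arrays, where S100a8 and S100a9 were about 20-fold apart. Mmp8, the neutrophil collagenase gene, was 1.97-fold higher in Nav1.8CreROSA26DTA with PBS, at 33.9 against 17.2, and read 48.0 in wild-type and 89.9 in Nav1.8CreROSA26DTA with LPS. Of 10 neutrophil markers, 5 (Cxcr1, Cxcr2, Padi4, Stfa2l1 and Mrgpra2b) were not well above background on any array. Csf3r (30151 to 40855) and Trem1 (1389 to 1639) differed little and made up nearly all of the summed signal of 31933 to 42607. They also differed little with LPS (log2 0.13 and −0.14, averaged over both genotypes), where Ly6g did not. Whether these 2 probes follow neutrophils in brain was not tested. The other 8 markers summed to 114 in wild-type with PBS, 144 in Nav1.8CreROSA26DTA with PBS, 478 in wild-type with LPS and 578 in Nav1.8CreROSA26DTA with LPS. These sums hold floor values in place of signal for the 5 markers that were dim on every array. Early myeloid genes measured on both PBS arrays were alike there, while some that were dim in wild-type were higher in Nav1.8CreROSA26DTA. Of 5 other primary granule and progenitor genes and 6 granulopoiesis factors measured on both PBS arrays, 0 were 2-fold apart, with medians of 0.27 and 0.18 (log2, Nav1.8CreROSA26DTA minus wild-type). Of those dim in wild-type only, Ctsg, Cst7 and Gfi1 were higher in Nav1.8CreROSA26DTA by at least 2.35-fold, 2.22-fold and 2.52-fold. For Cebpe and Nkg7 the bounds were 1.88-fold and 1.56-fold. Of 10 other primary granule and progenitor genes, 5, 8, 5 and 7 were well above background in wild-type with PBS, Nav1.8CreROSA26DTA with PBS, wild-type with LPS and Nav1.8CreROSA26DTA with LPS. The genes above background on the Nav1.8CreROSA26DTA PBS array and not on the wild-type one lay near the detection limit. The signals of 3 of them, chosen after their values were seen, are given here. Ctsg, a primary granule protease gene, read 18, Cebpe, a factor needed for secondary granules, 14.4, and Gfi1, a factor of granulocyte progenitors, 19.3 in Nav1.8CreROSA26DTA with PBS, all 3 not well above background in wild-type with PBS. Ms4a3, another progenitor marker, was not well above background on any array. Gfi1 was above background on that array only, Ctsg was 11.1 in Nav1.8CreROSA26DTA with LPS, and Cebpe was 17.1 in wild-type with LPS.

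Summed signals of other marker lists differed less between the PBS arrays than those of red cells. In wild-type and Nav1.8CreROSA26DTA with PBS they were 436 and 740 for 9 platelet genes, 74.5 and 143 for 5 B cell genes, 598 and 982 for 5 border macrophage genes and 171419 and 168045 for 5 neuron genes. The oligodendrocyte list also differed by genotype, with sums over 5 genes of 56099 and 81547 with PBS and 40711 and 90519 with LPS, and its gene Mobp passed for genotype (1.31 ± 0.15 on the log2 scale, limma adjusted p = 0.0094, averaged over both injections). The sums of the monocyte list and of the T and NK cell list rest on 1 to 3 bright probes, so these lists are given by gene. Of 10 monocyte genes, 7 were measured on both PBS arrays and 0 of them were 2-fold apart, with F13a1 1.90-fold higher in Nav1.8CreROSA26DTA. Ccr2 and Plac8, not well above background in wild-type with PBS, were at least 2.60-fold and at least 4.61-fold higher in Nav1.8CreROSA26DTA. Of 8 T and NK cell genes, 4 were measured on both PBS arrays and 0 were 2-fold apart, while Cd2 was at least 2.14-fold higher in Nav1.8CreROSA26DTA. The part of these cells in the members' differences was not tested. All 5 neuron and all 5 astrocyte markers were well above background on all 4 arrays, as the tissue label states.

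**Figure D4:**
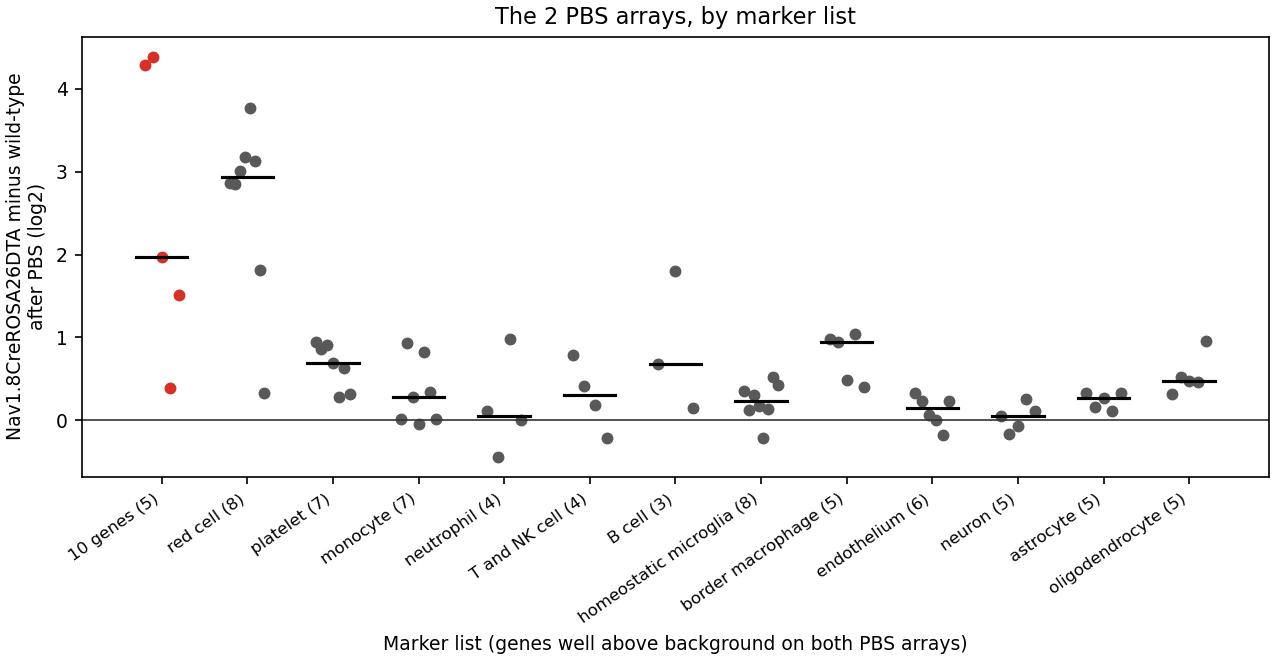
Difference of the Nav1.8CreROSA26DTA PBS array minus the wild-type PBS array (log2 of scaled signal), 1 point per gene well above background on both, for the set of 10 genes (red) and for marker lists (grey), with black lines at list medians and the number of genes plotted in parentheses. Red cell genes have a median of 2.93 and the 5 members plotted range from 0.38 to 4.39. The 4 neutrophil markers outside the set have a median of 0.05 and range from −0.44 (Csf3r) to 0.98 (Mmp8).

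Profiles most like calprotectin were sought over all 17123 tested genes outside the set, by the Euclidean distance between log2 signals over the 4 arrays, each centred on the gene's mean, with dim signals at the array's floor. The nearest was Chil3, a chitinase-like gene of neutrophils and macrophages, at a distance of 1.06, with signals of 24.2, 247, 268 and 539 in wild-type with PBS, Nav1.8CreROSA26DTA with PBS, wild-type with LPS and Nav1.8CreROSA26DTA with LPS. Ccl2, a monocyte chemokine, followed at 1.35, Hp (haptoglobin) at 1.51, Plac8 at 1.53 and Lox (lysyl oxidase) at 1.63. All 5 were lowest on the wild-type PBS array, and 4 of the 5 had the same order of arrays as S100a8, the exception being Ccl2, which was highest in wild-type with LPS. Among members, Retnlg was nearest (1.32, with 1 gene outside the set closer), then Ngp (2.31, with 12 closer) and Clec4d (2.83, with 95 closer). Ltf (4.05, with 2038 closer), Mpo (4.21, with 3894 closer), Camp (4.23, with 4252 closer) and Elane (4.37, with 8429 closer) lay further off, beside a median distance of 4.37 over all genes outside the set. Distances over 4 arrays are a description, and all genes share the same 4 RNA samples.

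**Figure D5:**
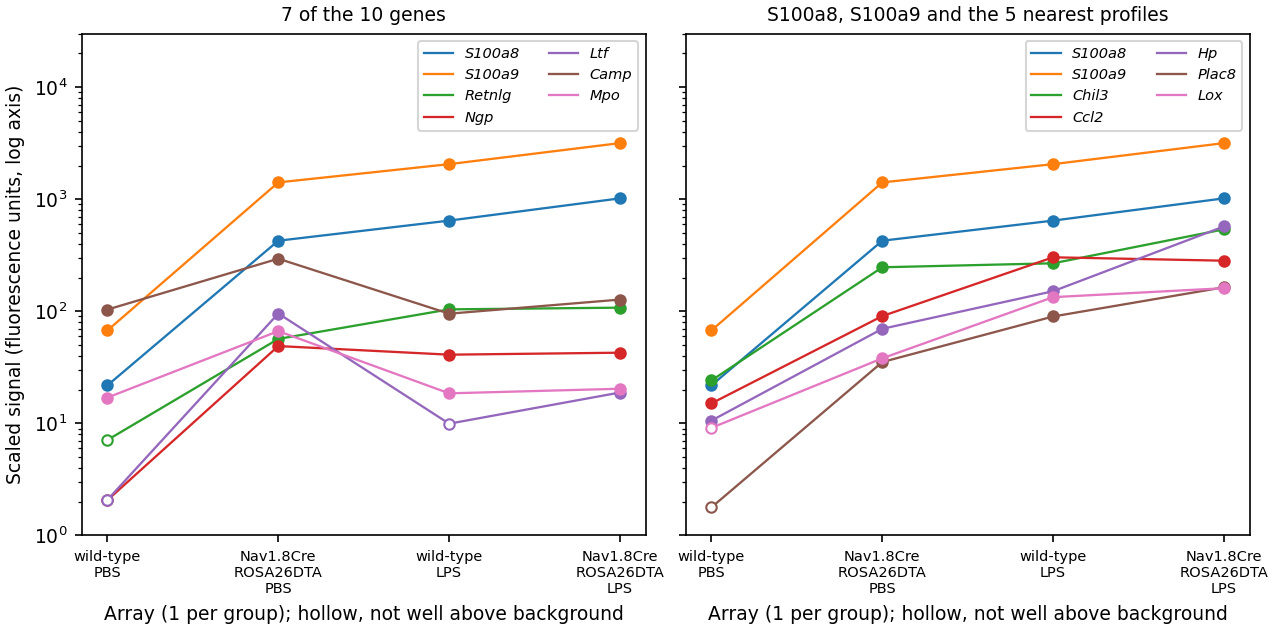
Scaled signal (fluorescence units, log axis) on the 4 arrays, 1 per group, with lines joining the points of a gene and hollow points not well above background. At left, S100a8, S100a9 and Retnlg are higher on each of the other 3 arrays than in wild-type with PBS, whereas Mpo, Camp and Ltf peak on the Nav1.8CreROSA26DTA PBS array. At right, S100a8 and S100a9 are drawn with the 5 genes picked for the smallest distance to their profile. Among those 5, Ccl2 was highest in wild-type with LPS.

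Genes around the members were examined through 9 lists of other neutrophil and related genes, tested for LPS against PBS averaged over both genotypes in a limma model over 17132 genes, where each ± is limma's standard error. Of 101 genes tested, 50 rose and 2 fell, beside 5.62% of all genes that rose and 4.54% that fell. The lists were chosen with earlier results of these data known, so nothing is read from their counts against those shares. Of those that rose, 8 were not well above background on at least 1 array, so their fitted differences are not exact. Leaving out 1 array meant dropping the genotype term too, since 3 arrays leave no residual degree of freedom with both terms. The number that rose in these fits of 3 arrays with LPS as the only term was 23 without wild-type PBS, 33 without Nav1.8CreROSA26DTA PBS, 34 without wild-type LPS and 26 without Nav1.8CreROSA26DTA LPS. With 1 array per group, the only residual of this model is how far a gene's LPS difference varied between the genotypes. The p-values set a difference against that residual, moderated towards the trend over genes of like intensity. They measure no spread between mice or between like arrays. For genotype, averaged over both injections, 0.409% of genes passed, and 2 of the 101 genes did, Hp of the granule genes and Ctsc of the primary granule and progenitor genes (0.85 ± 0.14 higher in Nav1.8CreROSA26DTA, limma adjusted p = 0.046). In fits of 3 arrays with genotype as the only term, 0 genes of the whole array passed for genotype in limma, while 239 to 790 had an unadjusted p under 0.05.

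Of 19 other granule and antimicrobial genes tested, 12 rose with LPS and 1 fell, with a median of 1.32 (log2) beside −0.03 over all genes. Lcn2, which encodes the iron-scavenging lipocalin of secondary granules and is also made by glia and endothelium, rose by 8.30 ± 0.23 (limma adjusted p = 9.0e-08), from 44.8 and 162 in wild-type and Nav1.8CreROSA26DTA with PBS to 21626 and 33432 with LPS. Unlike Ltf and Camp, Lcn2 was thus far above both PBS arrays on both LPS arrays. Hp rose by 3.44 ± 0.23 (limma adjusted p = 1.8e-05) and was also higher in Nav1.8CreROSA26DTA, by 2.32 ± 0.23 (limma adjusted p = 0.0051). The LPS call of Hp was lost without wild-type PBS (limma adjusted p = 0.22) and without Nav1.8CreROSA26DTA LPS (limma adjusted p = 0.31). Wfdc21, a small secreted inhibitor-like protein gene, rose (limma adjusted p = 0.0011), by at least 3.87-fold in wild-type, where it was dim with PBS, and 6.24-fold in Nav1.8CreROSA26DTA, and its call held in 1 of 4 fits with an array left out. Of 8 tested primary granule and progenitor genes, 3 rose (Ctsc, Hdc and Cst7), with a median of 0.39. Ctsc rose by 2.28 and Hdc by 1.59, and Cst7, dim in wild-type with PBS, by at least 7.30-fold in wild-type and 4.03-fold in Nav1.8CreROSA26DTA. Their calls held in 3, 3 and 2 of 4 fits with an array left out. Ctsc encodes the protease that activates elastase and its relatives, whereas Ctsg and Prtn3, which encode such proteases, did not pass (limma adjusted p = 0.69 and 0.91).

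Receptors and partners of the members changed in part. Of 14 tested, 4 rose, with a median of 0.16. Fcer1g and Syk, which carry the Clec4d signal, rose by 1.65 ± 0.11 and 0.85 ± 0.18 (limma adjusted p = 1.7e-05 and 0.017), and Clec4e, the neighbour and partner of Clec4d, rose (limma adjusted p = 0.0018) from below background in both genotypes, by at least 2.10-fold (wild-type) and at least 5.47-fold (Nav1.8CreROSA26DTA). Cd14, a co-receptor of TLR4, rose by 2.39 ± 0.13 (limma adjusted p = 5.8e-06), whereas Tlr4 itself (0.96 ± 0.29) and Ager, the gene of RAGE (−0.09 ± 0.11), did not pass, at limma adjusted p of 0.072 and 0.67. With 1 array left out, Syk passed in none of 4 fits, Clec4e in 1 and Fcer1g in 3 (lost without wild-type PBS, limma adjusted p = 0.073). Of 9 other S100 genes tested, 2 rose, S100a10 by 0.67 and S100a13 by 0.42, with a median of 0.08. S100a13 passed in none of the fits with an array left out and S100a10 in 1 of 4. Of 7 resistin-like and C-type lectin relatives, 4 rose, all lectins (Clec4e, Clec4a1, Clec4a3 and Clec4b1), with calls that held in 1, 3, 1 and 1 of 4 such fits. Retnla, the neighbour of Retnlg, was above background only in Nav1.8CreROSA26DTA with PBS, at 20.9.

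Of 8 tested transcription factors of granulocyte development, 5 rose with LPS, with a median of 0.82. Cebpd rose by 1.91 ± 0.10 (limma adjusted p = 3.3e-06) and Cebpb, the factor of emergency granulopoiesis, by 0.80 ± 0.10 (limma adjusted p = 0.0010), while Cebpe (limma adjusted p = 0.55) and Spi1, the gene of PU.1 (limma adjusted p = 0.084), did not pass. Of 18 neutrophil surface receptors, 11 rose and 1 fell, with a median of 1.56, led by Fcgr4 (4.97 ± 0.22) and Il1r2 (4.66 ± 0.16), which read 30.8 to 31.8 with PBS and 741 to 842 with LPS in the 2 genotypes. Ly6g rose by 2.64 ± 0.18 (limma adjusted p = 2.2e-05). Of 9 attractants and growth factors, 5 rose, among them Cxcl1 (at least 45.5-fold, wild-type; at least 65.9-fold, Nav1.8CreROSA26DTA) and Csf3 (at least 8.14-fold and at least 18.6-fold). Of 11 endothelial adhesion genes, 5 rose, with Icam1 first at 2.88 ± 0.13 (limma adjusted p = 1.5e-06). Lcn2, Cd14, Cebpd, Cebpb, Fcgr4, Il1r2, Ly6g, Cxcl1, Csf3 and Icam1 passed in all 4 fits with an array left out. Between the PBS arrays the median difference, Nav1.8CreROSA26DTA minus wild-type, was 0.16 for the surface receptors, 0.34 for the adhesion genes and 0.32 for the other granule genes, beside 0.04 over all genes. At least 2-fold higher in Nav1.8CreROSA26DTA were 1 of 17 surface receptors, 0 of 11 adhesion genes and 5 of 17 other granule genes measured on both PBS arrays, beside 1.21% of all genes. Those 5 were Chil3 (10.2-fold), Hp (6.59-fold), Lcn2 (3.62-fold), Lyz2 (2.36-fold) and Lyz1 (2.30-fold). Of 6 attractants and growth factors, 2 were also higher, with a list median of 0.63. These were Ppbp (3.01-fold, from 8.46 in wild-type) and Ccl4 (2.75-fold, from 14.6). Of 6 resistin-like and lectin relatives, 1 was higher (Clec4n, 2.29-fold) and 1 lower (Clec4a2), with a median of 0.68. For 13 receptors and partners and 9 other S100 genes the number higher was 0, with medians of 0.01 and 0.25.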

How the data were processed

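Total RNA, extracted with TRIzol per the labels' protocols, was hybridised as a single colour (Cy3) to 4 Agilent arrays, 1 per group, all on 1 slide read in 1 scan, so slide position and group cannot be told apart. Per the file headers, Feature Extraction 12.0.3.1 made each spot's processed intensity by background subtraction and detrending within the array (the submitters' processing notes name 11.0.1.1). The deposited value table was that intensity times 1 factor per array (1.57 to 2.09), of unstated origin. The flags for spots well above background, 66.5% to 69.5% of 59305 per array, are the scanner software's, as deposited. No spot was saturated, and 81 to 96 outlier spots per array were left out. The number of arrays limits the precision.

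Intensities, as deposited, were divided by the array's 75th percentile (514 to 726) and brought to a common level of 617 before taking log2. Probes were named through RefSeq accessions with a GRCm38.p6 table, used for names and gene order only, and 33767 of 56605 probes (59.7%) had 1 symbol. Where a gene had several probes, the one above background on most arrays stood for it, ties going to the brightest. Genes outside the set were tested in limma 3.58.1 (R 4.3.3; terms genotype and agent, intensity trend, 17132 genes well above background on at least 2 arrays, 1 residual degree of freedom, two-sided, Benjamini-Hochberg, threshold 0.05), a procedure tested on simulated data. The genes named from each list were up to 4 past the threshold with the largest averaged LPS difference and up to 2 not past it, plus any receptor, S100 gene or transcription factor. Further list genes (among them Mmp8, Lyz1, Lyz2, F13a1, Ccr2, Plac8, Cd2 and Mobp) were named after their values were seen. The members and all lists were chosen with earlier results of these data known. Alternatives were normexp, median scaling, cyclic loess, the deposited table, the mean of probes, no filter on dim probes, no intensity trend and leaving out each array (with the tested factor as the only term). The files used hold no mean signal, so normexp used the median signal of spot and background.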

Additional observations from a re-analysis of the deposited data

Results flagged for a closer look

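Mpo was flagged because its LPS response went opposite ways in the 2 genotypes. The response was 0.13 (log2) in wild-type and −1.71 in Nav1.8CreROSA26DTA, a difference of −1.83 (−0.96 with normexp correction). With 1 array per group this difference was not tested, and the wild-type response was smaller than the software error of the spots. Elane also went opposite ways, by 0.05 and −0.53, but its difference of −0.58 was under 2-fold.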

How the results depend on the processing

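Over the members' comparisons under each alternative, 100 of 178 values moved by less than the spot-to-spot error of a difference, 78 moved further and 0 of the called values reversed. With 1 probe per member, the mean of probes could not move a comparison measured on both arrays. Where 1 array was dim, the reported value was a bound and the alternatives were not held at the floor. The LPS difference of Ngp in wild-type, for example, was 2.42 as a bound and 4.31 as measured (log2). These counts therefore also reflect the handling of dim signals. For the 26 comparisons measured on both arrays, median scaling, cyclic loess and the deposited table moved values by at most 0.08, 0.11 and 0.09 (log2), and normexp by up to 1.60 (S100a8 in wild-type). Normexp turned the sign of 2 small differences between the LPS arrays (Mpo, 0.14 to −0.14, and Ngp, 0.06 to −0.13). It left 1 member at least 2-fold lower with LPS in Nav1.8CreROSA26DTA in place of 3, and 0 at least 2-fold higher in Nav1.8CreROSA26DTA with LPS in place of 1. It left 2 of 5 members with an LPS minus PBS difference at least 2-fold lower in Nav1.8CreROSA26DTA in place of 4. Taking dim signals as they are gave 6 members at least 2-fold higher with LPS in wild-type in place of 2, and 8 higher in Nav1.8CreROSA26DTA with PBS in place of 4. Of all genes, 963 were higher and 777 lower with LPS and 70 differed by genotype in limma. Lower genes numbered 1292 with median scaling, 463 with cyclic loess, 433 with the deposited table and 496 with the mean of probes. Genotype calls numbered 383 with normexp and, in the order of the last sentence, 197, 29, 28 and 12. With no filter the counts were 1583, 1567 and 958, and with no intensity trend 382, 48 and 0, with 28 of the other neutrophil genes higher in place of 50. Leaving out 1 array, with the tested factor as the only term, gave 370 to 514 higher, 70 to 187 lower, 0 to 0 by genotype (239 to 790 at an unadjusted p under 0.05, against 1747 with all arrays and 1476 with no trend) and 23 to 34 of the other neutrophil genes. These fits have fewer arrays and 1 term fewer, so the other factor enters both the difference and the spread, and the effect of the array alone was not told apart; the cause of the other changes was not tested. No paired analysis was possible because each group holds 1 array. Signal over background limits Ltf, Ngp, Retnlg, Clec4d and Cd177, which hold all 10 dim values of the 40.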
